A study of Mus musculus with 2 samples.

Results

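Zinc storage and transport genes were examined in the dorsolateral prostate of mice that carry a microRNA-32 transgene. The 10 genes are the metallothioneins Mt1 and Mt2, the Slc30a transporters Slc30a1, Slc30a2, Slc30a4 and Slc30a7, and the Slc39a transporters Slc39a1, Slc39a4, Slc39a6 and Slc39a7. They were chosen by function, as genes of a task that belongs to the lateral and dorsal prostate, out of 18952 genes on the array with a RefSeq symbol. All probes whose accession maps to them were taken, 13 probes on 22 spots, since Mt1 alone was printed 10 times. All mice were FVB/N and 6 months old. One pool held RNA of 6 wild-type animals and the other RNA of 6 ARR2PB-miR32 transgenic animals. ARR2PB is a composite probasin promoter that responds to androgen and drives expression in prostate epithelium. Both pools were hybridised together on 2 arrays with exchanged dyes, the transgenic pool in Cy3 on array 1 and in Cy5 on array 2. Because the second array only repeats the first with the dyes exchanged, both count as 1 replicate. Genotype could therefore not be tested, and each ± is the SD over the 2 arrays.

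Zinc enters the cytosol through the ZIP carriers, encoded by Slc39a genes, and leaves it, to the outside or into vesicles and the Golgi, through the ZnT carriers, encoded by Slc30a genes. Metallothioneins are small cysteine-rich proteins that bind zinc and copper. Their genes and that of the exporter ZnT1 are switched on by the zinc-sensing factor MTF1, which binds metal response elements near the gene start. The prostate is known for high zinc, which slows the oxidation of citrate and so lets it accumulate for secretion.

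The mature sequence of the transgene's microRNA is shown with its seed, bases 2 to 8, in capitals, as RefSeq gives it for the mouse locus on chr4:56895272-56895293 (GRCm38.p6, minus strand). The construct's own sequence was not used here.
mmu-miR-32-5p: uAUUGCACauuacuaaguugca
The promoters of Mt1, Mt2 and Slc30a1 are shown because these are the members named above as MTF1-responsive. Whether other members respond to MTF1 was not examined. Each holds 250 bases before the gene start and 50 from it on, from RefSeq (GRCm38.p6), all on the plus strand. Capitals mark the 7-base core of the metal response element, searched on both strands as TGCACNC and TGCGCNC. The windows are chr8:94178839-94179138 for Mt1, chr8:94172368-94172667 for Mt2 and chr1:191906531-191906830 for Slc30a1.
Mt1: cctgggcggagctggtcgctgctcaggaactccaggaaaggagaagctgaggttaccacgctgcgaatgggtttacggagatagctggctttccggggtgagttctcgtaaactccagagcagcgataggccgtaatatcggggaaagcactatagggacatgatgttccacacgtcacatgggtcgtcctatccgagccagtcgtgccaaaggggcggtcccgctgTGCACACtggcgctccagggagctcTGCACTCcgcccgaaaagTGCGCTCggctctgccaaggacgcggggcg
Mt2: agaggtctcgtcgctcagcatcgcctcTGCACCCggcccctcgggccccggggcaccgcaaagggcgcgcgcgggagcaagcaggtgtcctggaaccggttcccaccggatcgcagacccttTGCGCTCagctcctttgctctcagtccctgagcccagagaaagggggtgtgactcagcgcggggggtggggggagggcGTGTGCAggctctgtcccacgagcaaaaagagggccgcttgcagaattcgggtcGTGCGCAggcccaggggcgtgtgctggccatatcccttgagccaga
Slc30a1: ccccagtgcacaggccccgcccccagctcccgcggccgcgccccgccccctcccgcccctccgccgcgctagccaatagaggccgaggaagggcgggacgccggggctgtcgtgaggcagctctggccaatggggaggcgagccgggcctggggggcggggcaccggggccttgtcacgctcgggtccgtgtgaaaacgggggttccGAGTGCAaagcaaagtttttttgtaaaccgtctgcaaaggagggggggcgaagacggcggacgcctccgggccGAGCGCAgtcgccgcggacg
The core was found 3 times in the Mt1 window, 4 times in that of Mt2 and 2 times in that of Slc30a1, with no match overlapping another. Among 32851 windows of 300 bases in the same table, 25.7% held at least 1 core, 7.11% at least 2, 1.97% at least 3 and 0.517% at least 4. Windows were found for 8 of the 10 members, all but Slc39a4 and Slc39a6. Slc30a2 held 2 cores, Slc30a4 held 3, and no match to these letters lay in the windows of Slc30a7, Slc39a1 and Slc39a7. The match is a description of the letters in these windows. The gene start is that of the RefSeq entry, and whether transcription begins there in the prostate was not tested. Positions and counts could differ in a window set from another start.

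**Figure D1:**
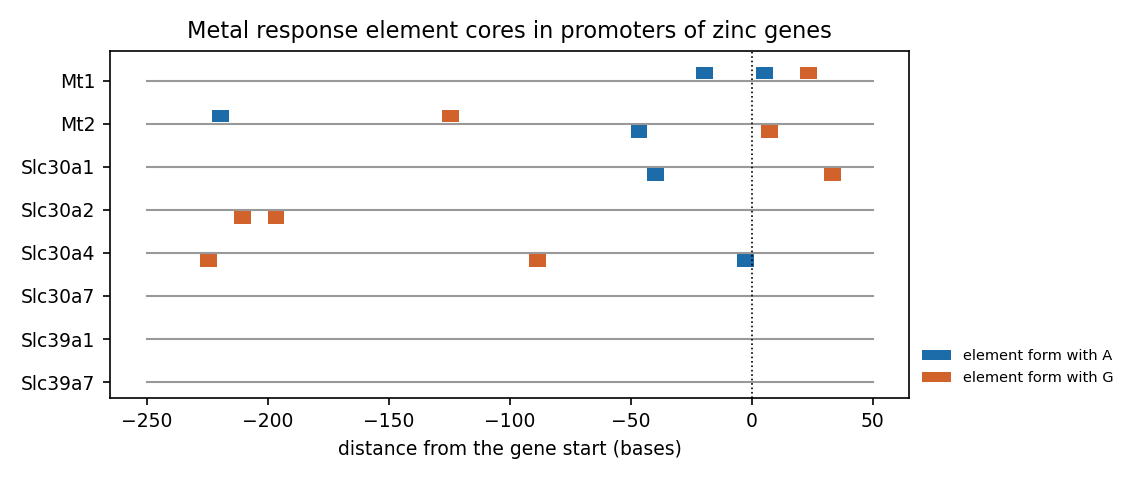
Position of metal response element cores (coloured blocks, 7 bases long) in the promoter windows of 8 zinc genes, with the distance from the gene start in bases on the x axis. Blocks above a line are on the gene's strand and blocks below it on the other strand. Mt1 has 3 cores close to its RefSeq start, and Slc30a7, Slc39a1 and Slc39a7 have no match.

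A total of 10435 genes were detected, meaning that a probe of the gene stood well above background on array 1 and on array 2 for the same pool, and all 10 zinc genes were among them. The weakest channel was Cy5 of array 2, which held the transgenic pool: 21.1% of spots were well above background there, against 42.1% in Cy5 of array 1 and 58.3% and 57.0% in Cy3 of arrays 1 and 2. Slc30a1, Slc30a4 and Slc39a6 were not well above background in that channel and were detected through the wild-type pool, while the other 7 were measured in both pools on both arrays. The tissue label was checked against marker lists. All 7 prostate secretion genes (Pbsn, Msmb, Tgm4, Spink1, Sbp, Azgp1 and Spink5) and 9 of 10 luminal genes were well above background in both pools on both arrays. Of 4 seminal vesicle genes, Svs2, Svs4 and Svs5 were not detected and Ceacam10 was detected through the wild-type pool and lower in the transgenic pool (−1.36 ± 0.14). The secretion genes Spink1 (−6.29 ± 0.23), Sbp (−3.18 ± 0.42), Spink5 (−3.17 ± 0.69) and Msmb (−0.86 ± 0.37) were at least 1.5-fold lower in the transgenic pool on each array, as was the luminal gene Hoxb13 (−0.69 ± 0.03). Of the secretion list Tgm4 (0.70 ± 0.64) and Pbsn (0.54 ± 1.21) had means above 0, and Azgp1 was at −0.18 ± 0.64. The median log2 ratio was −0.86 for the secretion list and −0.01 for the luminal list. Normalized intensities of the secretion list summed to 277557 in the transgenic and 435971 in the wild-type pool on array 1. On array 2 the sums were 481067 and 386455, so their order turned. In the transgenic pool 4 of 10 detected myeloid genes were at least 1.5-fold lower on each array. So were 5 of 6 adipocyte genes and 5 of 5 acute phase genes, against 1.30% of all detected genes. The list medians were −0.64, −1.93 and −1.90 in log2 ratio. Only 3 of the myeloid, 1 of the adipocyte and 3 of the acute phase genes were well above background in both pools on both arrays. The others were detected through the wild-type pool, so the sizes of their ratios are not firm. Summed normalized intensities of the myeloid list were 1646 and 1901 in the transgenic pool on arrays 1 and 2 and 3578 and 5044 in the wild-type pool. The adipocyte sums were 2097 and 1377 against 6884 and 7889, and the acute phase sums 856 and 1323 against 5010 and 5236. Lep, Il6 and Il1b were not detected. Of the detected basal (4), smooth muscle (5), fibroblast (5) and endothelium (3) genes, 0 were at least 1.5-fold lower or higher on each array. The part of these cell types and of the lower secretion genes in the zinc gene values was not tested, and in pooled tissue fewer cells of a type and less RNA per cell cannot be told apart.

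Of the 10 zinc genes, Mt1 was the only member called higher in the transgenic pool, and no member was called lower. The call needs a ratio of at least 1.5-fold (0.58 in log2) in the same direction on each array, read from the brightest detected probe of a gene. Over all detected genes 0.910% were called higher and 1.30% lower. The 8 transporters were all uncalled. The median log2 ratio of the members was 0.09, against −0.06 for all detected genes, and the member means ran from −0.78 (Slc39a4) to 0.83 (Mt2). For 6 of 10 members the sign was the same on both arrays, as it was for 45.4% of all detected genes, and Pearson's r between the arrays across detected genes was −0.03, a description over genes that share the same pools and slide. On array 2 alone 2 members (Mt1 and Mt2) were at least 1.5-fold higher, as were 5.21% of all detected genes. On that array 3 members (Slc30a1, Slc39a4 and Slc39a6) were at least 1.5-fold lower, as were 15.0%. Slc30a1 and Slc39a6 had transgenic net intensities of −6.5 and −11 there, so their ratios give no firm size. Detection held for 10425 genes through the wild-type pool and for 6062 through the transgenic pool. The 15.0% can thus include genes not well above background in the latter.

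**Figure D2:**
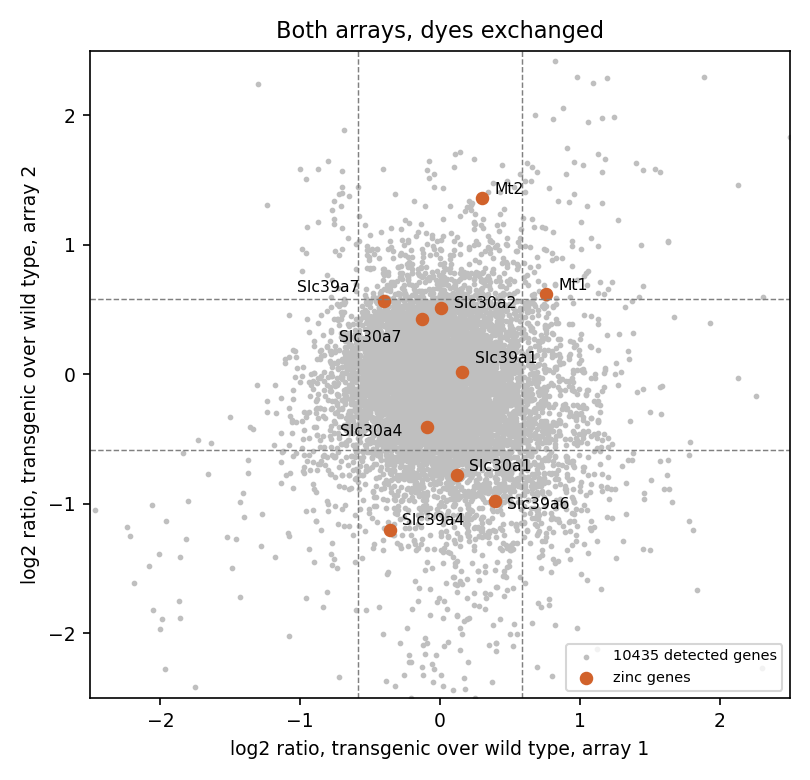
Log2 ratio of the transgenic over the wild-type pool on array 1 (x axis) and array 2 (y axis) for 10435 detected genes (grey) and the 10 zinc genes (orange), with dashed lines at 1.5-fold; 41 genes lie outside the axes. Mt1 lies just inside the upper right region, and the other 9 zinc genes do not pass the lines on both arrays.

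The metallothioneins stood at the upper end of the members. Mt1, the main inducible zinc-binding metallothionein of most tissues, had a normalized log2 level of 16.38 in the transgenic pool and 15.62 in the wild-type pool on array 1, and 16.18 and 15.56 on array 2. The transgenic level was the higher on each array, and 1821 of 10435 detected genes had a ratio above 0 on both arrays. The levels are means over spots of the same 2 pools on both arrays. The log2 ratio was 0.76 on array 1 and 0.62 on array 2, a mean of 0.69 ± 0.10 or 1.62-fold, above the mean ratio of 98.5% of detected genes. Mt2, its neighbour and close relative with the same metal-binding role, was at 16.65 in the transgenic and 16.34 in the wild-type pool on array 1, and at 16.98 and 15.62 on array 2. It was higher on each array but past 1.5-fold on array 2 only (log2 ratios of 0.30 and 1.36, mean 0.83 ± 0.75). Both genes thus had the same sign on both arrays. The small SD of Mt1 rests on the mean over its spots, which spread widely on array 2.

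The deposited signals behind these ratios were bright. Before normalization the mean net intensity of the Mt1 spots, background taken off, was 90363 in Cy3 for the transgenic pool and 73014 in Cy5 for the wild-type pool on array 1. On array 2 it was 31067 in Cy5 for the transgenic pool and 97885 in Cy3 for the wild-type pool. The raw transgenic signal of Mt1 was thus the higher on array 1 and the lower on array 2, where the median spot had 10 in Cy5 and 26.5 in Cy3. For Mt2 the values were 108048 and 120136 on array 1 and 42301 and 104669 on array 2, so its raw transgenic signal was the lower on both. The ratios of both genes on array 2 were above 0 after loess and below 0 before it. With median centring in place of loess, which removes no trend with brightness, the ratio of Mt1 was 0.63 on array 1 and −1.59 on array 2, and its mean of −0.48 stood near the median of all genes, −0.57. Mt2 was then at 0.16 and −0.88, with a mean of −0.36. The median of all detected genes was then −0.05 on array 1 and −1.09 on array 2. On array 2 Mt2 lay above that median and Mt1 below it.

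The 10 spots of Mt1 gave a view of the error within an array. On array 1 the 9 usable spots had log2 ratios of 0.53 to 1.11 with a median of 0.72, all above 0, and a spot SD of 0.165, close to the median of 0.166 over the 245 probes that were printed 10 times. On array 2 the 10 spots ran from −3.11 to 1.5 with a median of 1.31. Their SD of 1.45 was the highest of the 245 probes, against a median of 0.233. In 7 spots the Cy5 signal of the transgenic pool lay between 36972 and 44667.5, and in the other 3 it was 1926, 13600 and 15358. The wild-type Cy3 signal of all 10 spots lay between 86765.5 and 108330.5. The 3 dim spots gave ratios of −3.11, −0.29 and 0.12, while the other 7 gave 1.19 to 1.5. Of the 3, the last was also marked as an outlier on array 1, where its wild-type Cy5 signal was 23783 and that of the others 55935.5 to 83381.5. With the median over the spots in place of their mean, Mt1 was at 0.72 and 1.31, a mean of 1.01.

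**Figure D3:**
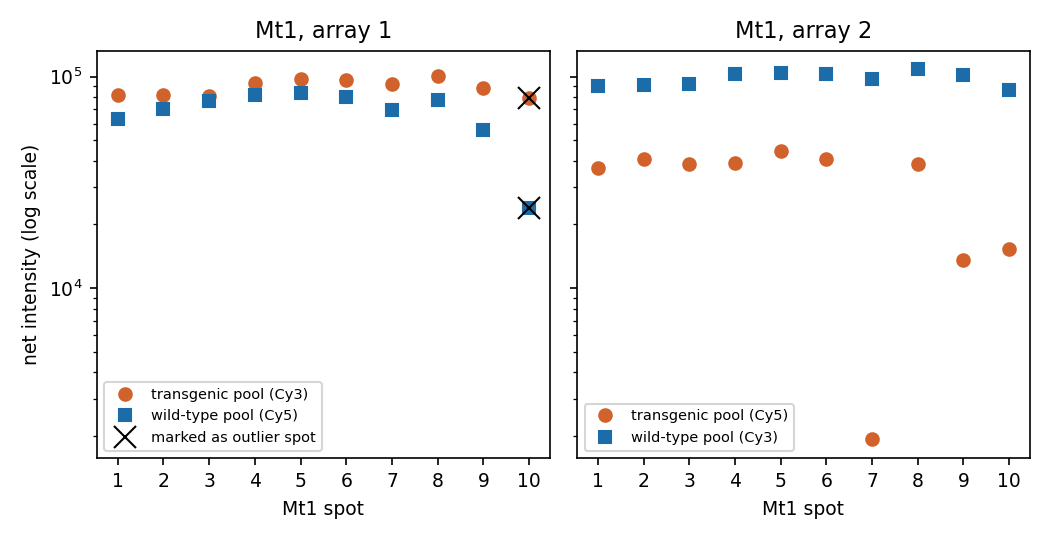
Net intensity (log axis) of the 10 Mt1 spots on array 1 (left) and array 2 (right) for the transgenic pool (circles) and the wild-type pool (squares); crosses mark a spot left out as an outlier. On array 2 the transgenic signal is between 36972 and 44667.5 in 7 spots and drops to 1926, 13600 and 15358 in the other 3, while the wild-type signal stays within 86765.5 to 108330.5.

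Mt3 and Mt4, the other metallothioneins, lie beside Mt2 and Mt1 on chromosome 8, where the order of protein-coding genes in RefSeq is Mt4, Mt3, Mt2 and Mt1. Mt3, best known from brain, had log2 ratios of 0.38 and 0.90 (mean 0.64 ± 0.37), with net intensities of 379 and 352 in the transgenic and wild-type pools on array 1 and 166 and 382 on array 2. It was higher on each array and not past the size rule. Neither probe of Mt4 was detected. All 3 detected metallothioneins thus had a ratio above 0 on both arrays in the setting used, and all 3 had one below 0 on array 2 under median centring, where Mt3 had a mean of −0.09. The genes that flank the cluster, Bbs2 and Nup93, were at −0.62 ± 0.16 and −0.37 ± 0.55, neither well above background on array 2 in the transgenic pool. Metallothionein transcripts resemble each other, and the probe sequences were not analysed here, so how well the probes tell them apart was not tested.

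The 4 ZnT members had mean ratios between −0.33 and 0.26, without a common direction. Slc30a1 encodes ZnT1, the exporter of the plasma membrane. Its brighter probe gave log2 ratios of 0.12 and −0.78 (mean −0.33 ± 0.64) and its other probe −0.33 and −0.30 (mean −0.32 ± 0.02). The net intensities of these probes were 67.5 and 43 in the transgenic pool and 68.5 and 81 in the wild-type pool on array 1. On array 2 they were −6.5 and 5 in the transgenic pool, at the level of the local background, against 94 and 69 in the wild-type pool. The means of both probes lay below 0, with array 2 resting on a signal that was not well above background. The mean of the brighter probe was above that of 14.8% of detected genes.

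Slc30a2 encodes ZnT2, which loads vesicles in secretory epithelia such as the mammary gland. Its normalized log2 levels were 10.37 in the transgenic and 10.36 in the wild-type pool on array 1, and 10.75 and 10.24 on array 2. The pools were level on array 1 and apart on array 2, and the mean ratio was 0.26 ± 0.36. Slc30a4 encodes ZnT4, a vesicular carrier whose loss causes the lethal milk trait. Its levels were 7.14 and 7.24 on array 1 and 6.82 and 7.24 on array 2, a mean ratio of −0.25 ± 0.23 with array 2 not well above background in the transgenic pool. Slc30a7 encodes ZnT7, which moves zinc into the Golgi. Its 3 probes had means of −0.05 ± 0.43, −0.09 ± 0.12 and 0.15 ± 0.40, the last being the brightest. No probe kept a distance from 0 larger than its SD, and the 3 probes did not share a sign. The median of the 4 ZnT members was −0.05.

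Among the 4 ZIP members Slc39a4 had the lowest ratio. Slc39a4 encodes ZIP4, the zinc importer of the gut that is defective in acrodermatitis enteropathica. Its net intensity was 622 in the transgenic and 1032 in the wild-type pool on array 1, and 79.5 and 1260 on array 2. Normalized levels were 9.20 against 9.56 and 8.56 against 9.76, so the transgenic pool was the lower on each array. The log2 ratios were −0.36 and −1.20, a mean of −0.78 ± 0.60 or 1.72-fold lower, below the mean ratio of all but 2.05% of detected genes. It missed the size rule on array 1. Over the 13 other settings tried the value ran from −1.57 with median centring to −0.36 on array 1 alone. Slc39a4 has 1 probe with 1 spot, so settings on probes, spots, detection or a single array could not change the sign. The ratio stayed below 0 on each array without background correction, with an offset of 16 and in the scanner software's log ratios. Median centring gave −0.40 on array 1 and −2.75 on array 2. In that setting the median gene stood at −0.05 and −1.09, so a sign below 0 on array 2 says little. Slc39a4 lay below the median gene on each array.

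Slc39a1 encodes ZIP1, an importer described as a main route of zinc into prostate cells. Its levels were 9.71 in the transgenic and 9.55 in the wild-type pool on array 1, and 9.51 and 9.49 on array 2. The pools differed by less than 1.5-fold on each array, with a mean ratio of 0.09 ± 0.10. Slc39a7 encodes ZIP7, which releases zinc from the endoplasmic reticulum and Golgi. Its levels were 13.18 and 13.58 on array 1 and 13.46 and 12.89 on array 2. The sign turned with the dyes (−0.40 and 0.57), and the mean ratio was 0.08 ± 0.69. Slc39a6 encodes ZIP6, an importer known from oestrogen-responsive breast cells. It was at 0.39 on array 1 and −0.98 on array 2, where its transgenic net intensity was −11 against 116 in the wild-type pool, and its mean was −0.29 ± 0.97. The median of the 4 ZIP members was −0.10, with 1 member above 0 on both arrays and 1 below.

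**Figure D4:**
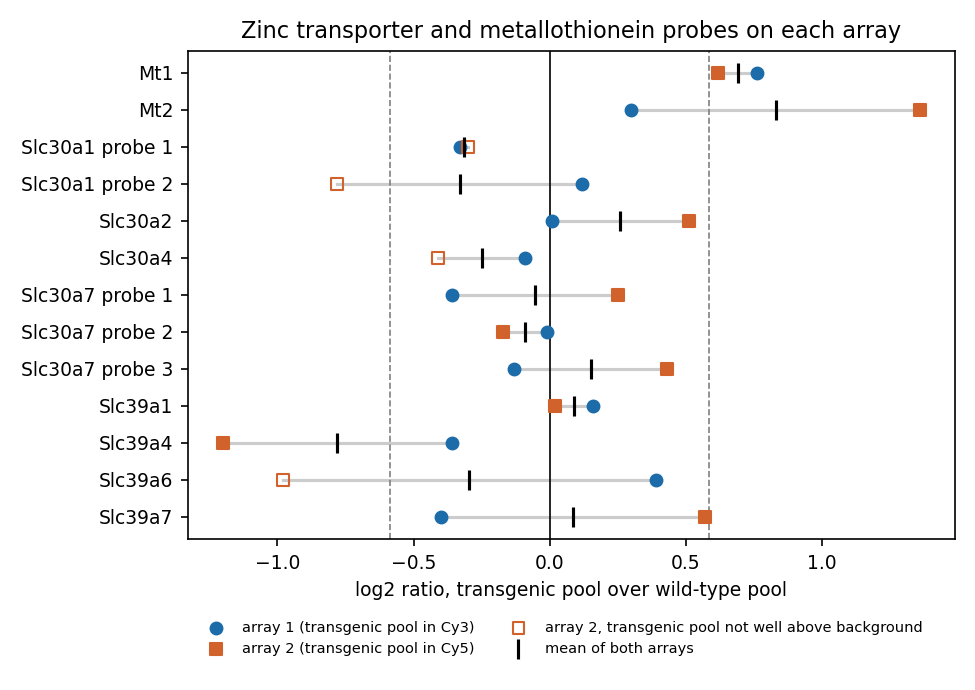
Log2 ratio of the transgenic over the wild-type pool for each of the 13 probes on array 1 (circles) and array 2 (squares, open where the transgenic pool was not well above background), with the mean of both arrays as a bar and dashed lines at 1.5-fold. Mt1 is past the line on both arrays; Mt2, Slc39a4, Slc39a6 and the brighter probe of Slc30a1 (probe 2) are past it on array 2 only.

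The remaining genes of the same families gave no calls. Of 18 listed, 11 were detected, with 0 called in either direction and a median of −0.10. Means ran from −0.46 to 0.64, with Mt3 the highest. Slc30a9, a ZnT family member of mitochondria, was the lowest at −0.54 and −0.38 (mean −0.46 ± 0.12). Its other probe was at −0.13 ± 0.53, and neither probe was well above background on array 2 in the transgenic pool, so array 2 gives no firm size. The brighter probe would have passed the size rule in the log ratios of the scanner software (−1.04 and −1.3). In those log ratios 6.01% of all detected genes were called lower. Slc39a14, which encodes the inflammation-responsive importer ZIP14, was at −0.13 ± 0.36, with array 2 not well above background for the transgenic pool, and Slc39a8, which encodes ZIP8, at 0.10 ± 0.35, with its other probe at 0.37 ± 0.04. Slc39a10, Slc39a2, Slc39a5, Slc39a12, Slc30a3 and Slc30a8 were not detected, nor was Mt4.

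Among genes of metal sensing and handling 0 of 18 were called in either direction, with a median of −0.02. Over all detected genes 0.910% were called higher and 1.30% lower. A lack of calls therefore does not set a list of this size apart. The same limit holds for the remaining family genes and for the citrate and glucocorticoid lists. Mtf1, the gene of the zinc sensor, was at 0.18 and −0.42 (mean −0.12 ± 0.43), not well above background on array 2 in the transgenic pool. Atp7b, a copper-exporting ATPase, had the largest ratio of the list, 0.48 and 0.85 (mean 0.67 ± 0.26), higher on each array. It was past the rule in the log ratios of the scanner software (0.84 and 0.89), where 2.37% of all detected genes were called higher. Ftl1, the ferritin light chain, was at −0.02 and −1.04 (mean −0.53 ± 0.72). Gclc, an MTF1-responsive gene of glutathione synthesis, was at 0.16 ± 0.02, and Hmox1, heme oxygenase, at 0.05 ± 0.25, the latter with array 2 not well above background for the transgenic pool.

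Citrate genes of the zinc-dependent prostate pathway also gave 0 calls among 11, with a median of −0.09. Slc25a1, the mitochondrial citrate carrier, was at −0.39 and −0.35 (mean −0.37 ± 0.03). Cs, citrate synthase, had 2 probes that disagreed, the brighter at 0.62 and −2.93 (mean −1.16 ± 2.51) and the other at 0.30 and −0.42 (mean −0.06 ± 0.51). On array 2 the brighter probe had a net intensity of 21.5 in the transgenic pool, not well above background, while the other was measured in both pools on both arrays. Slc25a11, the oxoglutarate carrier, was at 0.39 and 0.98 (mean 0.69 ± 0.42). The arrays of Slc25a1 lay close together below 0, and those of the Cs probe lay on opposite sides.

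Metallothionein genes also answer to glucocorticoids. A list of genes that do so gave 0 calls among 8 detected in the setting used, with a median of −0.02. Cebpd, a transcription factor of the acute phase, was at −1.06 and −0.45 (mean −0.75 ± 0.43). It was past the size rule, and lower, in the log ratios of the scanner software (−0.94 and −1.08). The same held in the authors' deposited values (−0.95 and −1.11) and with median centring (−1.09 and −1.71). Tsc22d3, the glucocorticoid-induced leucine zipper, was at −0.48 and −0.90 (mean −0.69 ± 0.30), and its other probe was at −0.59 and 0.20 (mean −0.19 ± 0.56). Neither probe was well above background on array 2 in the transgenic pool. In the log ratios of the scanner software both were past the size rule (−0.87 and −1.07, and −0.99 and −2.24). Fkbp5, a marker of receptor activity, was at 0.66 and −0.39 (mean 0.14 ± 0.74). Sgk1, a kinase induced by steroids, was at −0.65 and −0.31 (mean −0.48 ± 0.24). Nr3c1, the glucocorticoid receptor gene, was at 1.16 and −0.13 (mean 0.51 ± 0.92), the array 2 value not well above background for the transgenic pool. Of the 8 means, 4 were above 0 and 4 below, and 3 genes had the same sign on both arrays.

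The call of Mt1 depended on the processing. It was past the size rule after normexp with an offset of 50 and loess, whether spots were averaged or their median taken. It was short of the rule on array 2 with an offset of 16 (0.70 and 0.36), with scaling between the arrays (0.81 and 0.58), in the log ratios of the scanner software (0.79 and 0.25) and in the authors' deposited table (0.79 and 0.22). Without background correction it was short of it on array 1 (0.55 and 1.63). Mt2 had ratios of 0.44 and 0.87 from the scanner software and of 0.44 and 0.85 in the authors' deposited table, above 0 on each array and past the line on array 2. In both of these sources Slc39a4 was below 0 on each array, at −0.48 and −0.79 and at −0.48 and −0.81. The deposited table holds 7 of the 10 members and lacks Slc30a1, Slc30a4 and Slc39a6.

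**Figure D5:**
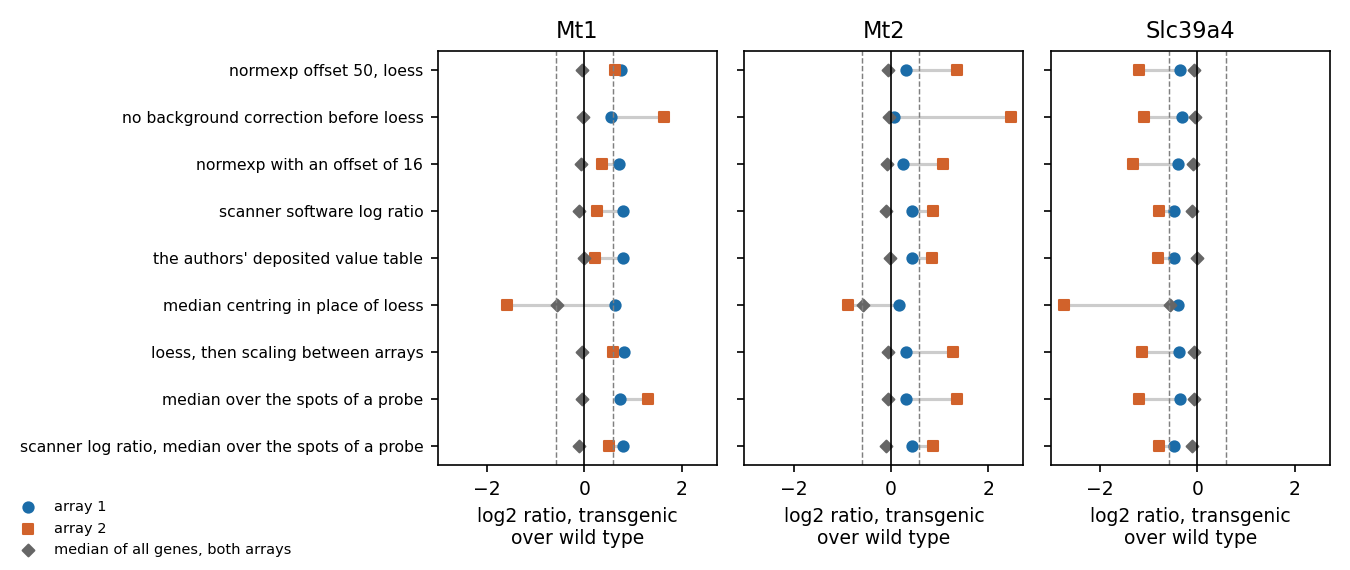
Log2 ratio of Mt1, Mt2 and Slc39a4 on array 1 (circles) and array 2 (squares) under 9 ways of processing, with the median of all genes over both arrays as a diamond and dashed lines at 1.5-fold. Slc39a4 is below 0 on both arrays in each of them, while Mt1 and Mt2 are above 0 on both arrays in each but median centring, where array 2 is at −1.59 and −0.88. The median of all genes on array 2 alone is −1.09 under median centring.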

How the data were processed

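Total RNA of pooled dorsolateral prostate was labelled from 100 ng and read on 2-colour Agilent arrays of 1 slide, per the labels' protocols. Per the file headers, the scanner software was Feature Extraction 11.0.1.1, and its deposited files hold median pixel intensity values for spot and local background, neither background-subtracted nor dye-normalized. They also give a deposited log10 value, the Cy5 signal divided by the Cy3 signal after the software's own processing. The authors' deposited value table is in log2 and matched that log ratio, as transgenic over wild type, with a correlation of 1 and medians of −0.0001 and −0.0006.

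Ratios were turned to transgenic over wild type from the dyes in the labels. The normexp method (offset 50) corrected the background and loess within each array the dyes (limma 3.58.1, R 4.3.3), with control and outlier spots at weight 0. Outlier spots (157 and 177 of 43379) were dropped, and the remaining spots averaged per probe. Levels come from loess followed by Aquantile normalization. No spot was saturated. Accessions were matched to RefSeq (GRCm38.p6): 27816 of 41174 probes had a symbol. The array annotation cites mm9, so no array coordinates are given. A gene took the value of its brightest detected probe. A probe of several spots counted as well above background when at least 0.5 of its spots were. The members and lists were chosen with earlier results of these data known. All 10 members are named. Of the further lists (other zinc family, metal handling, citrate and glucocorticoid genes) the genes past the size rule, of which there were 0, or otherwise the 2 detected genes with the largest absolute mean ratio are named. Others mentioned were chosen after their values were seen. Cell type marker lists are given by counts, with summed levels for the secretion, myeloid, adipocyte and acute phase lists only. Not every listed gene is reported here. Precision is limited by having 2 arrays, of which the second was dim in Cy5. Simulated data served to check the scripts. Alternatives covered the background, the normalization, the source of ratios, the probe rule, the detection filter, the size rule and each array alone. Python 3.11.15, pandas 2.3.3, numpy 2.4.6 and matplotlib 3.10.9 were used.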

Additional observations from a re-analysis of the deposited data

How the results depend on the processing

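No member was called lower under any of the settings that use both arrays, and the number called higher, 1 (Mt1), became 0 without background correction, with an offset of 16, in the log ratios of the scanner software (also with the median over spots), in the authors' deposited table, with median centring, with scaling between the arrays and at 2-fold. It remained 1 with the mean over probes, with detection in both pools, with no detection filter and with the median over spots. Without replicate 1 or 2, that is on a single array, the members called lower were 0 to 3 and those called higher 1 to 2, and the median of the members ran from 0.07 to 0.23. This median was 0.20 in the scanner software's ratios (also over the median of spots), 0.30 in the deposited table, which holds 7 members, and −0.51 after median centring, against −0.57 for all genes. The mean of Mt1 reversed to −0.48 with median centring. Of 124 single-gene values under other settings, 20 moved by more than the SD over the arrays without reversing. A further 1, that of Mt1 with median centring, reversed. Values on a single array could not move so far, by construction. Those under another detection filter repeat the values given. So do spot medians of probes with 1 spot and probe means of genes with 1 probe. Of 10435 detected genes, 95 were called higher and 136 lower. These counts were 149 and 240 with an offset of 16, 247 and 627 in the scanner software's ratios, 178 and 119 of 6127 genes in the deposited table (2.91% and 1.94%), 2 and 554 after median centring, 94 and 76 of 6133 genes with detection in both pools (1.53% and 1.24%), and 25 and 37 at 2-fold. The median over spots was chosen after seeing the data. The cause of these shifts was not tested. Genes with low signal, Slc30a1, Slc30a4 and Slc39a6, are limited by the weak Cy5 of array 2. No paired analysis was possible because each genotype is 1 pool on both arrays.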

Other observations

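Slc39a7 lies in the major histocompatibility region of chromosome 17, where H2-K1, a class I antigen-presentation gene 3 places away in the order of protein-coding genes, was lower in the transgenic pool at −1.37 and −0.76 (mean −1.06 ± 0.43). The genes between them, Ring1 and H2-Ke6, were at −0.17 ± 0.37 (array 2 not well above background for the transgenic pool) and 0.13 ± 0.52, and Slc39a7 itself was at 0.08 ± 0.69. Rxrb, the retinoid X receptor gene on its other side, was at −0.36 ± 0.31. H2-K1 was the only detected gene of these neighbours past the size rule.

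Herpud1, a gene of endoplasmic reticulum stress that lies 3 places from Mt1 on chromosome 8, was at −0.52 and −2.87 (mean −1.69 ± 1.66), so its arrays shared a sign and differed widely in size. It was chosen after its value was seen.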
